A study of Mus musculus with 6 samples.

Results

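Skeletal muscle contracts when calcium leaves the sarcoplasmic reticulum and relaxes when calcium is pumped back, and the genes described here encode the proteins of that cycle. Of 10 listed genes, *Ryr1*, *Atp2a1*, *Atp2a2*, *Casq1*, *Casq2*, *Sln*, *Pln*, *Trdn* and *Jph1* were matched by gene symbol, with 13 of the 25697 probes of the array, and *Cacna1s*, which encodes the voltage sensor, was not matched and is not analysed here. The cochleae came from 3 WT and 3 *Cmah*-null mice, strain C57BL/6 in the sample records and C57BL/6J in the methods, all aged 12 months, and were measured with 1 Illumina MouseRef-8 v2 BeadChip array per sample. The study asked which genes differ in the cochlea of *Cmah*-null mice, which lack the hydroxylase that makes the sialic acid Neu5Gc, at an age at which they lose hearing. The sources used here do not say how much of the tissue around the cochlea was taken, and p-values measure only the spread between these samples, which may be technical.

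In a muscle fibre an action potential moves the voltage sensor in the transverse tubule, the sensor opens the ryanodine receptor RyR1 in the facing membrane of the reticulum, and the calcium that flows out binds troponin C on the thin filament. Calsequestrin holds the store inside the reticulum, junctophilin ties both membranes together, triadin anchors calsequestrin at the release channel, and the SERCA pumps refill the store under the brake of the small proteins sarcolipin and phospholamban. Fast-twitch fibres use SERCA1 (*Atp2a1*) and calsequestrin 1 (*Casq1*), whereas heart and slow-twitch fibres use SERCA2 (*Atp2a2*), calsequestrin 2 (*Casq2*) and, in heart, phospholamban. The cochlea itself has no skeletal muscle, although small muscles of the middle ear lie beside it, and SERCA2 and other calcium handling proteins are made in many cell types.

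*Ryr1* was read by 4 probes. Probe 1 lies near the start of the transcript, at base 224, and probes 2, 3 and 4 lie at its far end, from base 15020, 15197 and 15300. The sequences of the first 3 and of the only *Casq1* probe (base 370) are shown because these genes differed most from array to array. Each is 50 bases long and written in the sense of the transcript, and the capitals mark the stop codon of *Ryr1*, found in the reading frame of probe 3.
*Ryr1* probe 1: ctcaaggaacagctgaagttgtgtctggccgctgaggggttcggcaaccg
*Ryr1* probe 2: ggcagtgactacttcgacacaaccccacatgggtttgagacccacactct
*Ryr1* probe 3: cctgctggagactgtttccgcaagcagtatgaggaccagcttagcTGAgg
*Casq1* probe: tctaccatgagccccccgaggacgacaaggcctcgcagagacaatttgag

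No member differed between *Cmah*-null and WT-mice beyond the spread of the replicates. The smallest p among the 13 probes was 0.0701, for *Atp2a2*, and their adjusted p ranged from 0.617 to 0.965 (limma, two-sided, Benjamini-Hochberg over all 25697 probes). At an adjusted p under 0.05 no member was called, against 0.0% of all probes. At 1.5-fold with an unadjusted p under 0.05 (the study states this fold and p without saying whether the p was adjusted), called the criterion below, no member was called either, against 2.71% of all probes, and no member had an unadjusted p under 0.05 at any fold. The groups overlapped at all 13 probes, where they did not overlap at 16.4% of all probes. In log2 signal 10 of the member probes were lower in *Cmah*-null mice and 3 higher. By the brightest probe of each gene, the median difference of the 9 genes was -0.14, and that of all genes on the array was 0.01. The former counts *Trdn* and *Pln*, which were at background. This member median was -0.31 over probes detected on at least 3 arrays, -0.32 with neqc normalization and -0.26 without *Cmah*-null replicate 3. It was nearer 0 in other settings, at -0.04 under median scaling and -0.08 without *Cmah*-null replicate 1. In bulk tissue, fewer cells of a type and less RNA per cell cannot be told apart.

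**Figure D1:**
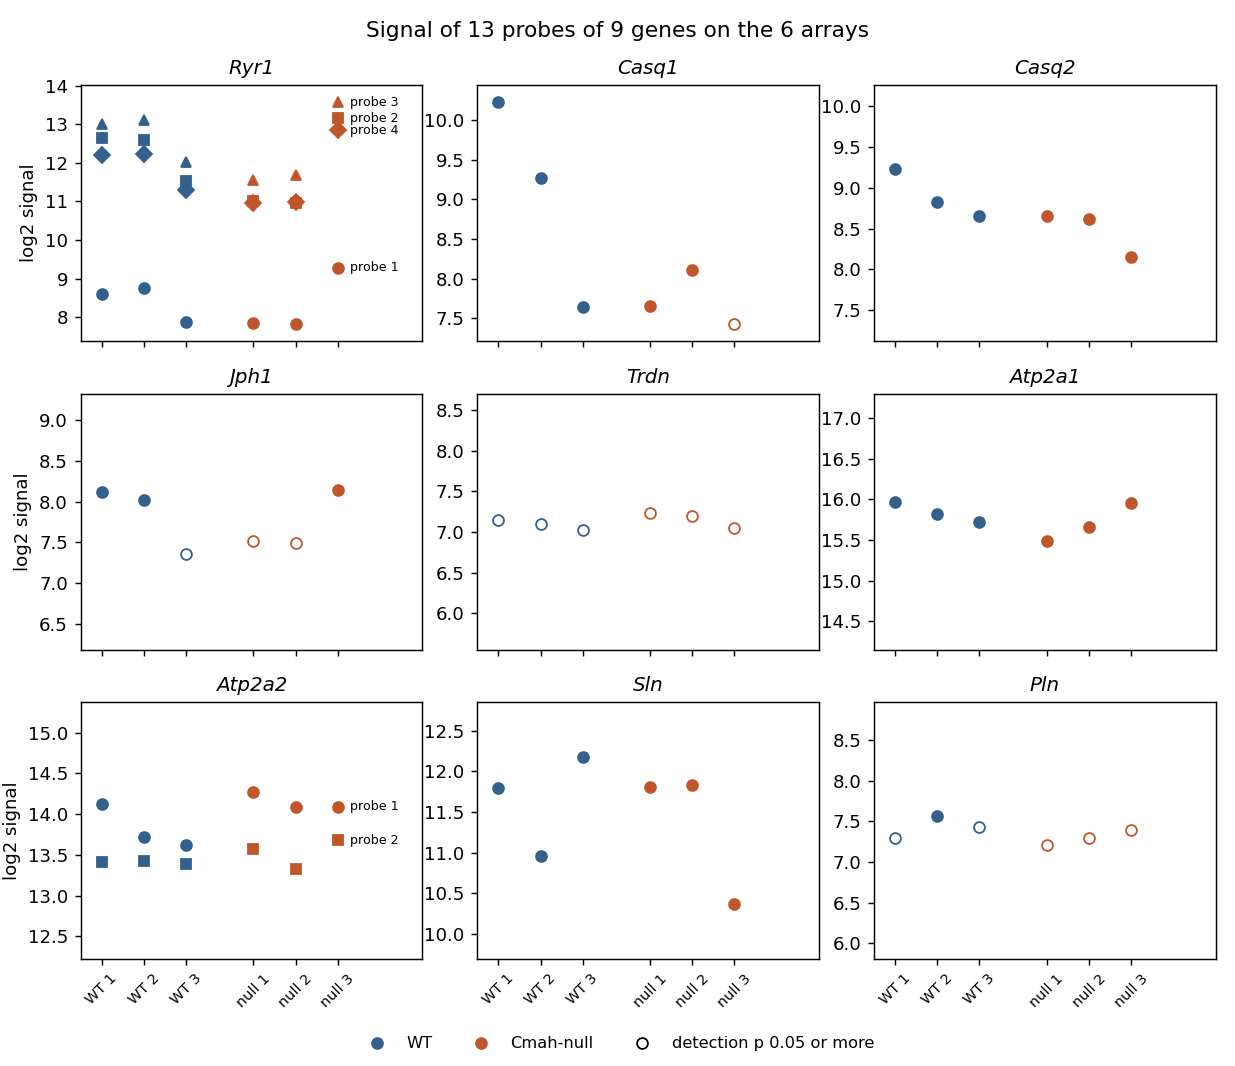
Log2 signal (y axis) of the 13 member probes on each of the 6 arrays (x axis, WT in blue and *Cmah*-null in orange). One panel is drawn per gene, probes are numbered from the start of the transcript, and open symbols mark arrays where the probe was not detected. *Ryr1* was highest in *Cmah*-null replicate 3 and *Sln* lowest there, while *Casq1* was high only in WT replicates 1 and 2.

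The arrays differed in how much muscle signal they held, and these values stand beside every result below. Between 13873 and 15223 probes were detected per array (detection p under 0.05). Of 26 skeletal muscle markers 25 were matched and 23 detected on all 6 arrays, and their summed linear signal, in units of 1000, was 463, 466 and 252 in WT replicates 1, 2 and 3 and 281, 275 and 321 in *Cmah*-null replicates 1, 2 and 3. WT replicate 3 lay below both other WT arrays in 22 of the 23. Of 13 matched cochlea markers 8 were detected on all arrays, including *Otos*, *Coch*, *Gjb2*, *Gjb6*, the hair cell genes *Myo7a* and *Otof* and the matrix and tectorial membrane genes *Otoa* and *Tecta*. The hair cell genes *Slc26a5* and *Pou4f3* and the tectorial membrane gene *Tectb* were detected on none. In the same units the cochlea markers summed to 13.2, 22.2 and 26.0 in WT replicates 1, 2 and 3. In *Cmah*-null replicates 1, 2 and 3 they summed to 22.3, 21.6 and 21.1, so WT replicate 1 had the lowest sum. Of 8 matched heart markers, *Actc1* and *Myl4* were detected on all 6 arrays, *Mybpc3* on 5, *Myh6*, *Nppb* and *Tnni3* on 3 each, and *Myl7* and *Nppa* on none. Bone markers summed to between 7.63 and 57.8 in the same units among WT arrays and to between 15.8 and 17.0 among *Cmah*-null arrays. Brown fat markers summed to between 36.5 and 57.3 in WT and between 7.74 and 22.3 in *Cmah*-null mice, without overlap. *Cox8b*, which the paper also lists under cardiac muscle contraction, was the brightest brown fat marker on every array and weighed most in that sum. Of the 6 brown fat markers, 4 were lower at 1.5-fold with an unadjusted p under 0.05, against 1.46% of all genes, and none passed after adjustment (limma adjusted p = 0.433 for the uncoupling protein gene *Ucp1*), and *Dio2* was detected on no array. The part of any of these tissues in the members' values was not tested. *Cmah*-null replicates 1 and 2 were closest to each other, with an SD of the log2 difference over all probes of 0.126 against 0.307 to 0.636 for every other pair. The *Cmah* probe had a log2 signal of 7.27, 7.28 and 7.87 in WT and 7.95, 7.98 and 7.27 in *Cmah*-null mice, and was detected on 1 WT and 2 *Cmah*-null arrays. It was thus not lower in the samples labelled *Cmah*-null, and since it lay near background and its place relative to the deleted part is not given in the sources used here, it does not check the labels.

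The release channel *Ryr1* varied more within the groups than between them. At probe 3, the brightest, log2 signal was 13.00, 13.12 and 12.02 in WT replicates 1, 2 and 3 and 11.54, 11.68 and 13.57 in *Cmah*-null replicates 1, 2 and 3. *Cmah*-null replicate 3 was thus the highest of the 6 arrays, and the other two *Cmah*-null arrays were the lowest. The difference was -0.45 ± 0.62 (SE, n = 3 and 3, 95% confidence interval -1.97 to 1.08, limma adjusted p = 0.864), and the pooled SD within groups, 0.91, exceeded that of 98.3% of the probes detected on all arrays. The other probes gave the same order of arrays in outline. Probe 2 had 12.64, 12.59 and 11.52 in WT and 11.01, 10.96 and 13.15 in *Cmah*-null mice, and probe 4 had 12.21, 12.23 and 11.29 against 10.96, 10.98 and 12.85. Probe 1, at the start of the transcript, had 8.61, 8.75 and 7.88 against 7.84, 7.82 and 9.28. *Cmah*-null replicate 3 was the highest array at all 4 probes, and across the 6 arrays the probes correlated with each other at Pearson's r of 0.970 to 0.996, a description of probes that share their samples. The bead standard error on single arrays was 2.50 to 5.96% of the signal for the 4 probes. Without *Cmah*-null replicate 3, the 3 far probes met the criterion, at -1.26, -1.10 and -0.94 for probes 2, 3 and 4 (unadjusted p = 0.0152, 0.0219 and 0.0256, limma adjusted p = 0.266 to 0.311). The absence of a call at the criterion thus rests on that sample for these 3 probes. Probe 1 did not meet the criterion without it, at -0.59 (limma adjusted p = 0.439), and no probe passed an adjusted p under 0.05. On *Cmah*-null replicate 3 the skeletal muscle markers were above both other *Cmah*-null arrays in 16 of 23 and below both in 4. These counts have no share over all probes beside them, and the other *Cmah*-null arrays were the closest pair (SD of the log2 difference 0.126). The part of muscle content in the *Ryr1* values was not tested.

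The store protein *Casq1* had the largest difference among the members in log2 signal, carried by WT replicates 1 and 2. Its signal was 10.22, 9.27 and 7.64 in WT replicates 1, 2 and 3 and 7.65, 8.11 and 7.43 in *Cmah*-null replicates 1, 2 and 3. WT replicate 3 lay within the range of the *Cmah*-null arrays, and the probe was not detected in *Cmah*-null replicate 3 (detection p of 0.120). In WT replicate 3 and *Cmah*-null replicate 1 it was near background, as the lowest detected signals of those arrays were 7.47 and 7.52. The difference was -1.31 ± 0.65 (SE, 95% confidence interval -2.92 to 0.29, unadjusted p = 0.0921, limma adjusted p = 0.641). With neqc normalization it was -2.1 (limma adjusted p = 0.621). Without WT replicate 3, which had the lowest muscle marker sum, it was -2.01, with an unadjusted p of 0.0030 and an adjusted p of 0.267, and without WT replicate 1 it was -0.72, with an adjusted p of 0.729. *Casq2*, the calsequestrin of heart and slow fibres, had 9.23, 8.82 and 8.65 in WT and 8.66, 8.62 and 8.14 in *Cmah*-null mice. WT replicate 3 was marginally below *Cmah*-null replicate 1, so the groups touched, and the difference was -0.43 ± 0.21 (SE, 95% confidence interval -0.94 to 0.08, unadjusted p = 0.0852, limma adjusted p = 0.630). It was -0.26 both without WT replicate 1 and without *Cmah*-null replicate 3, and -0.21 under median scaling. With the number of beads per probe as a block, both calsequestrins met the criterion, *Casq1* at -1.68 (unadjusted p = 0.0291) and *Casq2* at -0.59 (unadjusted p = 0.0007, limma adjusted p = 0.104).

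The probes of *Jph1* and *Trdn*, whose proteins join the triad, were near background. *Jph1*, junctophilin of skeletal muscle, had a log2 signal of 8.11, 8.02 and 7.35 in WT and 7.52, 7.49 and 8.15 in *Cmah*-null mice, and was detected in WT replicates 1 and 2 and *Cmah*-null replicate 3 only. These are the arrays on which the bright *Ryr1* probes were highest. *Trdn*, triadin, was not detected on any array by its only probe, with signals of 7.02 to 7.23, and its difference is not read as a change.

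The calcium pumps were bright on every array and differed little. *Atp2a1* ranked between 7 and 27 among all 25697 probes of its array, with a log2 signal of 15.96, 15.82 and 15.73 in WT and 15.48, 15.66 and 15.95 in *Cmah*-null mice. Its raw signal was 66298, 54603 and 40015 in WT and 61897, 62025 and 61437 in *Cmah*-null mice, where the brightest probe of each array had 68016, 65751 and 64537 and 69913, 69453 and 66576, so on most arrays it lay near the top of the range, where differences may be compressed. The difference was -0.14 ± 0.14 (SE, 95% confidence interval -0.49 to 0.21, limma adjusted p = 0.807), and its sign turned under median scaling, to 0.21. *Atp2a2*, the pump of slow fibres, heart and most other cells, was read by 2 probes. The brighter one had 14.12, 13.72 and 13.62 in WT and 14.27, 14.09 and 14.09 in *Cmah*-null mice, so that only WT replicate 1 reached the *Cmah*-null range. It gave the smallest p of the members, at a difference of 0.33 ± 0.15 (SE, 95% confidence interval -0.04 to 0.70, unadjusted p = 0.0701, limma adjusted p = 0.617). The other probe had 13.41, 13.43 and 13.39 against 13.57, 13.33 and 13.68, a difference of 0.12 ± 0.11 (SE, limma adjusted p = 0.780), and both were higher in *Cmah*-null mice under every alternative run. Under median scaling both met the criterion (0.62 and 0.78; unadjusted p = 0.0183 and 0.0424), but that scaling raised the median difference of probes detected on every array from 0.03 to 0.30.

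Of the pump regulators, sarcolipin was clearly measured and phospholamban was not. *Sln* had a log2 signal of 11.80, 10.96 and 12.17 in WT and 11.80, 11.83 and 10.37 in *Cmah*-null mice. *Cmah*-null replicate 3 was the lowest array and WT replicate 3 the highest, the opposite ends from *Ryr1* for the former, and across the 6 arrays *Sln* and *Ryr1* had a Pearson's r of -0.79, given as a description. The difference was -0.31 ± 0.50 (SE, 95% confidence interval -1.54 to 0.92, limma adjusted p = 0.884), and its sign turned under median scaling, to 0.17, and without *Cmah*-null replicate 3. *Pln* was detected in WT replicate 2 only, at 7.57, and its other signals were 7.21 to 7.43, too near background for a fold.

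**Figure D2:**
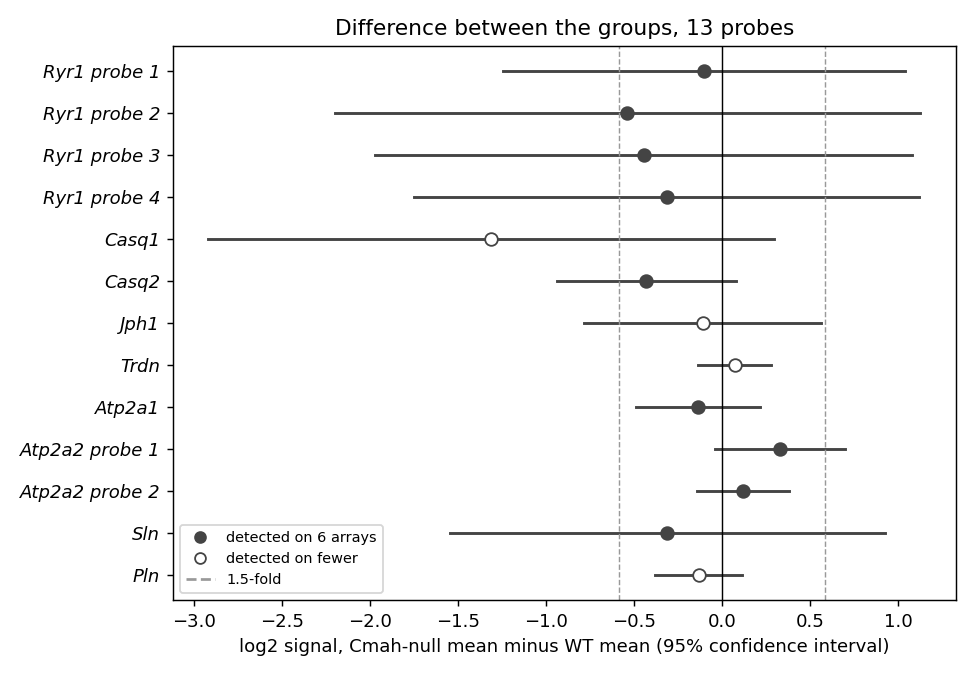
Difference in log2 signal between the *Cmah*-null and WT means (x axis) for each member probe (y axis), with the 95% confidence interval from limma. Dashed lines mark 1.5-fold, and open circles mark probes not detected on all 6 arrays. Every interval spans 0, the widest being those of *Ryr1* and *Casq1*.

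Fast and slow forms of the pump and of calsequestrin, and the regulators *Sln* and *Pln*, were compared within each array. The measure was the change in the difference of their log2 signals, since probe levels of different genes cannot be set against each other. For *Atp2a1* minus *Atp2a2*, the values were 1.84, 2.10 and 2.10 in WT and 1.21, 1.57 and 1.86 in *Cmah*-null mice, the groups overlapping only by WT replicate 1 and *Cmah*-null replicate 3. With the limit that *Atp2a1* was among the brightest probes, where differences may be compressed, the change was -0.47 (exact permutation test, two-sided, p = 0.2, 0.6 adjusted over the 3 pairs compared). For *Casq1* minus *Casq2*, the values were 0.99, 0.44 and -1.02 against -1.00, -0.51 and -0.72, a change of -0.88 (exact permutation p = 0.4, adjusted p = 0.6). For *Sln* minus *Pln*, the change was -0.18 (exact permutation p = 0.7, adjusted p = 0.7), but *Pln* was not detected on 5 of the 6 arrays, so the value does not compare both genes. With 3 samples against 3 the smallest p of this test is 0.1, so no pair could have passed 0.05.

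**Figure D3:**
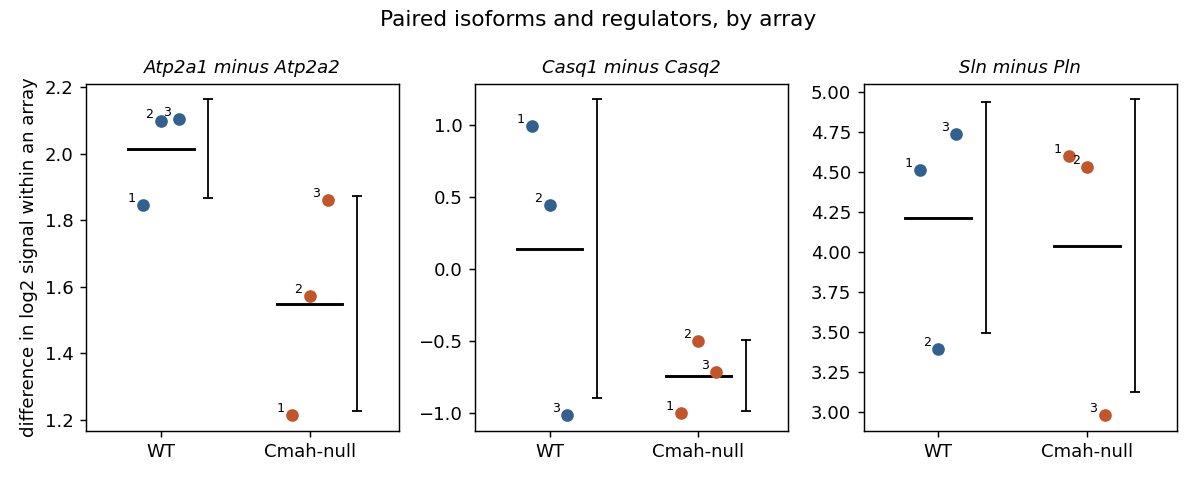
Difference in log2 signal between paired genes within each array (y axis) for WT and *Cmah*-null mice (x axis), with the replicate number beside each point. Horizontal lines are group means and bars at their right are SD (n = 3). The groups overlap in all 3 pairs, *Atp2a1* is among the brightest probes of each array, and *Pln* was not detected on 5 of 6 arrays.

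Other genes of calcium handling were taken from a list of 41 that held none of the members, and 40 were matched by symbol (*Stim2* was not), 31 of them detected on all 6 arrays. By their brightest probe, *Cmah*-null mice had 3 of the genes higher and 2 lower at 1.5-fold with an unadjusted p under 0.05, against 1.61% of all 18138 genes higher and 1.46% lower. None passed after adjustment (smallest limma adjusted p = 0.453). The groups did not overlap at 8 of the 40, where they did not at 16.4% of all probes, and the median difference was -0.07.

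Of the 3 higher genes, *Atp2a3*, the SERCA3 pump of blood and epithelial cells, had 13.20, 13.29 and 13.43 in WT and 13.86, 13.86 and 14.52 in *Cmah*-null mice, a log2 difference of 0.77 ± 0.20 (SE, unadjusted p = 0.0090, limma adjusted p = 0.453). These values are from the brightest of the 3 *Atp2a3* probes, and the other probes are not described here. *Orai1*, the pore of store-operated calcium entry, had 10.05, 9.93 and 9.55 against 10.43, 10.37 and 10.85, a difference of 0.71 ± 0.19 (SE, limma adjusted p = 0.458). *Sepn1*, a selenoprotein of the reticulum that modulates ryanodine receptors, had 11.28, 11.69 and 11.57 against 11.94, 11.92 and 12.72, a difference of 0.67 ± 0.25 (SE, limma adjusted p = 0.569). At all 3 genes every *Cmah*-null array lay above every WT array, and *Cmah*-null replicate 3 was the highest. Without that sample none of the 3 met the criterion, at 0.55, 0.56 and 0.41, *Orai1* missed it without WT replicate 3 (0.56), and *Sepn1* missed it without WT replicate 1 (0.56), 2 (0.76) or 3 (0.70).

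Of the 2 lower genes, *Cacna2d1*, an auxiliary subunit of the voltage sensor channel that is also made in neurons, had 11.50, 11.62 and 11.04 in WT and 9.74, 10.14 and 10.79 in *Cmah*-null mice, a log2 difference of -1.16 ± 0.30 (SE, unadjusted p = 0.0087, limma adjusted p = 0.453). Its groups did not overlap, and the gene met the criterion without any one of the 6 arrays. *Srl*, sarcalumenin, a calcium-binding protein of the reticulum, had 8.95, 8.31 and 7.48 in WT, where it was detected on all arrays. It was not detected on any *Cmah*-null array. The WT mean was 1.64-fold above the mean of the lowest detected signals of the *Cmah*-null arrays, a level of 7.53. WT replicate 3 lay below that level, so the fold is not a lower limit on the difference. The log2 difference of *Srl* was -0.91 ± 0.36 (SE, 95% confidence interval -1.81 to -0.01, limma adjusted p = 0.580). Its WT values spread over 1.46 on the log2 scale, with WT replicate 3 next to the *Cmah*-null arrays at 7.17 to 7.46. It met the criterion without WT replicate 3 but not without any other single array, where the difference was -0.56 to -0.97.

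Some listed genes, and some muscle genes outside the list, had array profiles like that of *Ryr1*. Across the 6 arrays, Pearson's r with *Ryr1* was 0.99 for *Jsrp1*, 0.97 for *Sypl2*, 0.96 for both *Stac3* and *Hrc*, 0.95 for *Stim1*, 0.93 for *Bin1* and 0.92 for both *Cacnb1* and *Cacng1*, values that describe 6 arrays with unequal muscle signal. Among muscle markers the highest values were 0.97 for *Pgam2*, 0.96 for *Des* and 0.91 for both *Acta1* and *Pygm*, so the likeness was not limited to the triad. Not all muscle markers shared it, since r was 0.13 for *Mb*, -0.10 for *Mylpf* and -0.49 for *Myl2*. Other triad genes had lower values, 0.61 for *Tmem38a*, 0.36 for *Srl* and -0.43 for *Jph2*, which was not detected. *Sypl2*, mitsugumin 29 of the triad, had 12.56, 12.89 and 10.39 in WT and 10.03, 10.11 and 12.71 in *Cmah*-null mice, so *Cmah*-null replicate 3 stood with WT replicates 1 and 2. *Asph*, whose locus also encodes junctin but for which 14 probes with this symbol are present, had r = -0.98 at its brightest probe. Of the 31 genes detected on all arrays, *Cmah*-null replicate 3 was above both other *Cmah*-null arrays in 19 and below both in 9. These counts also have no share over all probes beside them. Among the genes lower on *Cmah*-null replicate 3 was *Calm2*, a calmodulin gene, with 10.08 there against 12.13 and 12.24. Another was *S100a1*, a calcium sensor that binds ryanodine receptors, with 8.78 against 11.12 and 11.14. By sarcomere target, *Tnnc2*, troponin C of fast fibres, differed by -0.51 ± 0.29 (SE) and *Tnnc1*, of slow fibres and heart, by -0.23 ± 0.41 (SE, limma adjusted p = 0.680 and 0.898).

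**Figure D4:**
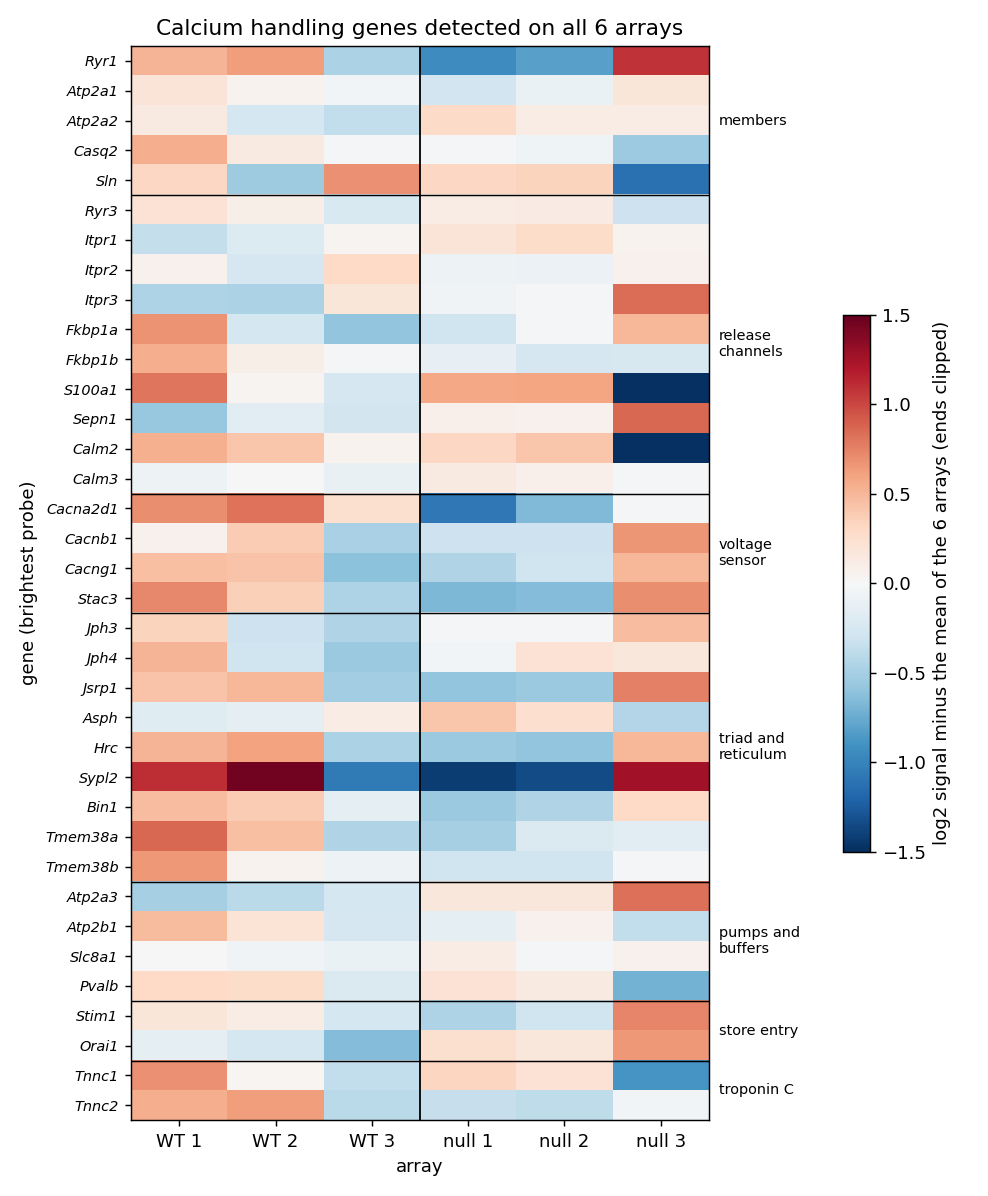
Log2 signal minus the mean of the 6 arrays (colour, red above and blue below) for the brightest probe of each member and each other calcium handling gene detected on all 6 arrays (rows, grouped by role), by array (columns). The scale ends at 1.5 in either direction. *Ryr1*, *Jsrp1*, *Hrc*, *Sypl2* and *Stac3* are red in WT replicates 1 and 2 and in *Cmah*-null replicate 3, whereas *Sln*, *S100a1* and *Calm2* are blue in the last.

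Contractile and metabolic genes of skeletal muscle give the scale of variation beside which the members stand. Of the 25 matched markers, none was higher and 2 were lower at the criterion, against 1.61% of all genes higher and 1.46% lower, with 21 below 0 and a median difference of -0.51. That median was -0.23 without WT replicate 1, -0.21 without WT replicate 2, -0.91 without WT replicate 3, -0.31 without *Cmah*-null replicate 2, -0.34 with *Cmah*-null replicates 1 and 2 averaged and -0.10 under median scaling. The 2 were *Mb*, the oxygen store myoglobin, at -0.87 ± 0.17 (SE, limma adjusted p = 0.397), and *Ttn*, the spring protein titin, at -0.84 ± 0.33 (SE, limma adjusted p = 0.578). The largest differences were those of *Mylpf* (-1.65), *Myh4* (-1.19), *Myoz1* (-1.00) and *Ldb3* (-0.97), fast fibre and Z-disc genes, none of which met the criterion. *Mylpf* was lowest in *Cmah*-null replicate 3, at 11.47 against 13.93 and 14.02 in the other *Cmah*-null arrays, and *Myh4* was higher there, at 13.89 against 11.56 and 11.35. The muscle genes therefore did not move as one on that array, and *Ryr1* was among those that were high and *Sln* among those that were low.

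The median profile of the 5 members detected on all arrays, each centred on its own mean, was 0.31, 0.05 and -0.04 in WT replicates 1, 2 and 3 and -0.03, -0.07 and 0.11 in *Cmah*-null replicates 1, 2 and 3. The 5 members did not share this profile, since their Pearson's r with each other ran from -0.79 (*Ryr1* and *Sln*) to 0.90 (*Ryr1* and *Atp2a1*). The genes most like it over the 6 arrays were *Gmpr* (Pearson's r = 0.983), *Rbpms2* (0.981), *Avil* (0.978), *Sdhc* (0.975) and AI317395 (0.974), taken from all genes detected on the 6 arrays. The best matches among so many genes over 6 arrays have a high r by selection.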

How the data were processed

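Total RNA of 6 cochlear samples was amplified to biotinylated cRNA and hybridized, 1 array per sample. Per the file headers, the deposited raw table holds intensity values (average bead signal, linear, not normalized), their bead standard error and number of beads, and a detection p-value. The authors deposited a second table of log2 values, which equalled quantile-normalized log2 intensities to within 5.00e-07. Columns named "old" were taken as *Cmah*-null, the only other group. The authors' fold change, local pooled error statistic and adjusted p-value, and repeated columns, were not used. Probes were matched by gene symbol, and genes represented by their brightest probe. Genotypes were compared with limma 3.58.1 in R 4.3.3 (lmFit, eBayes, no covariate, all probes), after tests on simulated data. Exact permutation tests used numpy 2.4.6, and figures matplotlib 3.10.9 in Python 3.11.15.

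The members and gene lists were chosen with earlier results of these data known. Named were all members, other calcium handling genes at 1.5-fold with p and detected throughout a group, the 5 muscle genes with the largest difference, the 5 genes most like the member profile, and *Cmah*. Other genes were named after their values were seen. A probe undetected in 1 group was bounded by the lowest detected signal of each array. The number of arrays limits the precision, since groups of 3 leave wide intervals. Alternatives were neqc (offset 16), median scaling, a block for the replicate number, only those probes that 3 or more arrays detected, beads per probe as a block (split at a median of 36), *Cmah*-null replicates 1 and 2 averaged, a variance prior with trend and robust, all probes of a gene averaged, counting by gene, and each array left out.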

Additional observations from a re-analysis of the deposited data

How the results depend on the processing

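Over 26 results and 15 settings, 282 of 309 alternative values kept their direction and, for single probes, their side of an adjusted p of 0.05, or, for counts, stayed within 1.5 times. No single probe listed passed that adjusted p in any setting, so its side could hardly change. Sizes could change without a change of direction, from -2.1 to -0.72 for *Casq1*. The calls at 1.5-fold with an unadjusted p also moved, as given with each gene. Those for the named calcium handling genes and the muscle marker median were chosen after seeing the data. Under median scaling, differences turned sign for *Atp2a1* (0.21), *Ryr1* probe 3 (0.069) and probe 4 (0.21), *Sln* (0.17), *Trdn* (-0.041, detected on no array) and *Sln* minus *Pln* (0.37). *Ryr1* probe 1 turned with the bead block (0.090) and with *Cmah*-null replicates 1 and 2 averaged (0.14). Leaving out each array in turn gave -0.35 to 0.033 for *Jph1*, -0.59 to 0.14 for *Ryr1* probe 1, -0.94 to 0.0019 for probe 4, -0.65 to 0.17 for *Sln* and -0.59 to 0.35 for *Sln* minus *Pln*. The count of member probes at 1.5-fold with p, 0, became 2 both under median scaling and with the bead block, 1 with the trended robust prior (*Casq1*) and 0 to 3 with an array left out (3 without *Cmah*-null replicate 3, 1 without WT replicate 3). The count of 5 other calcium handling genes became 6 with neqc, 7 both under median scaling and with the bead block, 4 with *Cmah*-null replicates 1 and 2 averaged, and 2 to 5 with an array left out, 2 without *Cmah*-null replicate 3 and 3 without WT replicate 1 or 2. The member median, -0.14, was -0.32 with neqc and -0.31 over probes detected on at least 3 arrays, where *Pln* and *Trdn* have no value. That median was -0.04 under median scaling and -0.08 without *Cmah*-null replicate 1. With the replicate number as a block, the counts stayed 0 and 5. Same-numbered samples deviated together with r of -0.17 to 0.02, and differently numbered ones with r of -0.097 to 0.167. With 3 arrays in each group, these values cannot tell whether the numbers mark a pairing. The cause of these shifts was not tested.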
